A study of Drosophila melanogaster with 18 samples.

Results

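The imaginal disc growth factors (Idgfs) of Drosophila melanogaster form a small family of secreted proteins that resemble chitinases. All genes named Idgf1 to Idgf6 were taken by name, and 6 of the 15602 genes in the deposited table met that rule. The table lists 5 of them as Idgf genes, and the remaining one, Idgf6, stands in it as CG5210 and was matched by its FlyBase identifier, FBgn0013763. Messenger RNA of wild-type OregonR wing discs was sequenced in 18 libraries of 6 groups, with 3 libraries in each. Larvae were 96 h old (after egg laying) at dissection, and the sample labels give 25 °C and a 45 min dissection window for every group. Uncultured discs were frozen within 30 min of dissection. All other discs were kept at 25 °C in serum-containing (5%, fetal bovine) Grace's medium with antibiotics, at about 15 discs in 500 µl. These cultures had no added hormone (4 h), 20 nM 20-hydroxyecdysone (20E, 4 h or 9 h) or 5 µg/ml bovine insulin (4 h or 9 h). A 9 h culture without hormone was not analysed here, so length of culture and hormone cannot be told apart at 9 h. The serum was in every culture, the added 20E came from an ethanol stock and the insulin from acidified water, and the labels name no matching vehicle for the cultures without hormone.

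The wing disc is the larval epithelial sac from which the adult wing and part of the thorax develop, and it grows under insulin-like peptides and the steroid 20E. Idgf proteins share the fold of glycoside hydrolase family 18 chitinases, but a change in the catalytic site is thought to leave them without chitinase activity. They are known as factors that, together with insulin, promote the growth of disc cells in culture, and they have since been linked to cuticle formation and wound repair in the fly. Idgf2 was first purified from medium conditioned by a disc-derived cell line, and Idgf6, once called DS47, was found as a protein secreted by Schneider cells.

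In the Ensembl annotation of the BDGP6.54 assembly, Idgf1, Idgf2 and Idgf3 lie side by side on the plus strand of chromosome arm 2L. Idgf1 (FBgn0020416) runs from 16445278 to 16446793, Idgf2 (FBgn0020415) from 16447330 to 16450508 and Idgf3 (FBgn0020414) from 16450907 to 16455194. Only 536 and 398 bases separate these neighbours, and the cluster spans 9917 bases. The remaining genes lie apart from the cluster and from each other. Idgf4 (FBgn0026415) is on the minus strand of chromosome X from 9927973 to 9930948. Idgf5 (FBgn0064237) is on arm 2R from 18393666 to 18395282, and Idgf6 is on the same arm from 16691022 to 16693751, both on the plus strand. The longest annotated proteins have a similar size, from 439 amino acids for Idgf1 to 452 for Idgf6. The deposited values were made on the older BDGP5 build and carry no coordinates, so these positions describe the current gene models.

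Idgf4 and Idgf6 supplied nearly all the Idgf messenger RNA of these discs. Levels are given as FPKM, counts of sequenced fragments scaled to transcript length and library size, which allow genes to be set side by side. Idgf4 made up 82.3% to 92.2% of the summed Idgf FPKM of a library and Idgf6 made up 7.39% to 17.1%. By its mean over the 18 libraries Idgf4 stood at percentile 97.5 of the tested genes, Idgf6 at percentile 77.5, Idgf3 at 7.37 and Idgf2 at 5.09. An Idgf gene was tested if it reached 1 FPKM in at least 3 libraries, as 8524 genes of the table did. Idgf2, Idgf3, Idgf4 and Idgf6 passed, and Idgf1 and Idgf5 did not.

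Idgf4 was abundant in every library. In uncultured discs its level was 308.6, 312.5 and 353.5 FPKM in replicates 1 to 3, and in discs cultured without hormone it was 391.3, 440.8 and 376.1 FPKM. With 20E it was 309.6, 276.3 and 289.5 FPKM at 4 h and 248.7, 242.9 and 278.1 FPKM at 9 h. With insulin it was 398.1, 402.0 and 380.3 FPKM at 4 h and 557.4, 537.5 and 626.1 FPKM at 9 h. The 9 h insulin libraries were the highest 3 of the 18, and no library of another group reached them. The group means, in rising order, were 256.6 ± 18.9 FPKM (SD, n = 3) in 20E at 9 h, 291.8 ± 16.8 in 20E at 4 h, 324.8 ± 24.9 in uncultured discs, 393.5 ± 11.6 in insulin at 4 h, 402.7 ± 33.8 without hormone and 573.6 ± 46.5 in insulin at 9 h. Ranges of neighbouring groups in this order overlapped between the 20E times, between 20E at 4 h and uncultured discs, and between insulin at 4 h and no hormone. They did not overlap between uncultured discs and insulin at 4 h, or between no hormone and insulin at 9 h.

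Idgf6 was the second most abundant member and varied more among replicates. Its level was 37.5, 34.7 and 57.1 FPKM in uncultured discs and 34.6, 91.2 and 64.9 FPKM without hormone. With 20E it was 26.7, 51.6 and 43.2 FPKM at 4 h and 22.4, 23.0 and 25.6 FPKM at 9 h. With insulin it was 31.9, 67.6 and 52.9 FPKM at 4 h and 105.7, 89.6 and 129.6 FPKM at 9 h. The 3 libraries of 20E at 9 h were the lowest of all 18 and lay close together, while replicates of each group at 4 h spread widely. The group means stood in the same order as those of Idgf4, from 23.7 ± 1.67 FPKM (SD, n = 3) in 20E at 9 h through 40.5 ± 12.7 in 20E at 4 h, 43.1 ± 12.2 in uncultured discs, 50.8 ± 17.9 in insulin at 4 h and 63.6 ± 28.3 without hormone to 108.3 ± 20.1 in insulin at 9 h. The ranges of 20E at 9 h and at 4 h did not overlap, and those of every other pair of neighbours in this order did.

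**Figure D1:**
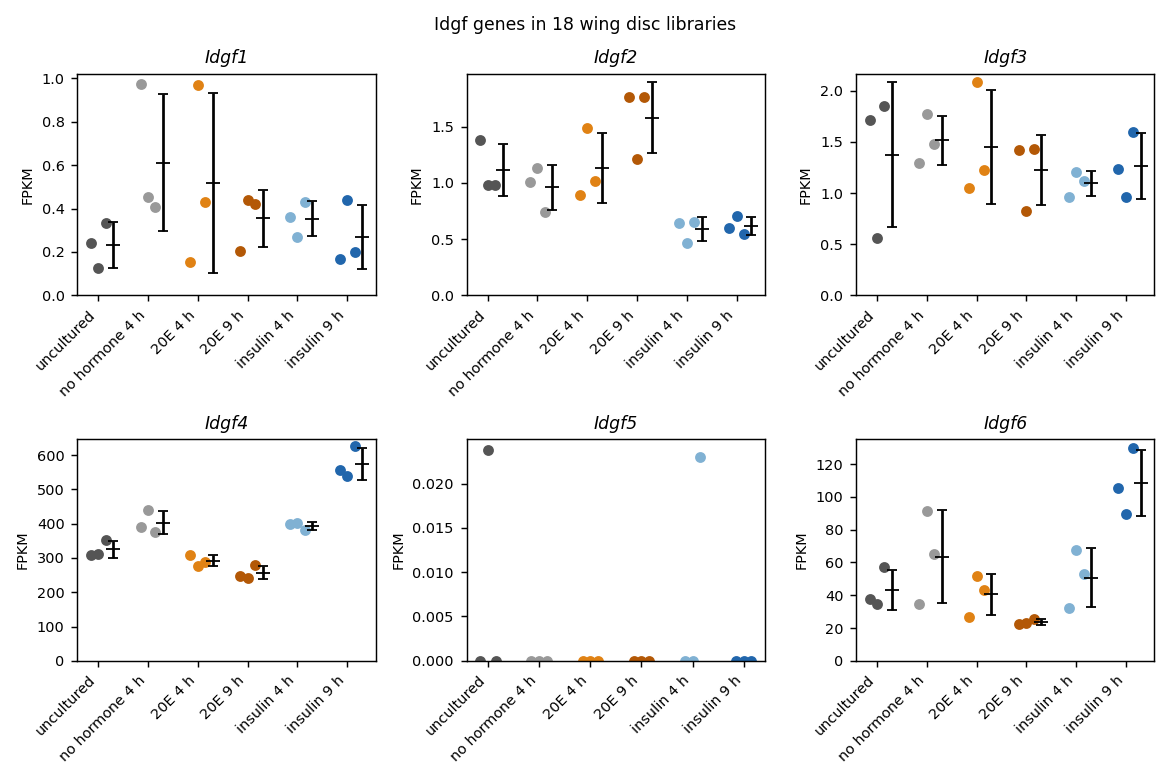
FPKM of each Idgf gene in every library by group, with 1 point for each library and, except for Idgf5, the group mean and SD over 3 libraries. Idgf4 and Idgf6 are highest in insulin at 9 h and lowest in 20E at 9 h, Idgf2 is highest in 20E at 9 h, and Idgf5 is listed at 0 in 16 of 18 libraries.

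Idgf2 was present at a low level and stood in another order. It measured 1.39, 0.983 and 0.984 FPKM in uncultured discs and 1.01, 1.13 and 0.741 FPKM without hormone. It measured 0.891, 1.49 and 1.02 FPKM in 20E at 4 h and 1.76, 1.22 and 1.77 FPKM in 20E at 9 h. In insulin it measured 0.644, 0.470 and 0.656 FPKM at 4 h and 0.596, 0.704 and 0.547 FPKM at 9 h. All 6 insulin libraries lay below every library of the other groups. The means rose from 0.590 ± 0.104 FPKM (SD, n = 3) in insulin at 4 h and 0.616 ± 0.0803 in insulin at 9 h to 0.962 ± 0.2003 without hormone, 1.12 ± 0.232 in uncultured discs, 1.13 ± 0.314 in 20E at 4 h and 1.58 ± 0.316 in 20E at 9 h. In this order, neighbouring ranges were separate only between insulin at 9 h and no hormone. Idgf2 reached 1 FPKM in 5 of 6 libraries with 20E, in 3 of the 6 uncultured and hormone-free libraries and in 0 of 6 libraries with insulin, so it entered the tests through the groups in which it was higher. From the small steps between low FPKM values, a library held an estimated 28.22 M to 38.1 M fragments, which puts Idgf2 at about 24.7 to 88.2 fragments a library.

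Idgf3 also stayed low, between 0.557 and 2.09 FPKM over the 18 libraries. Its group means ran from 1.09 ± 0.126 FPKM (SD, n = 3) in insulin at 4 h to 1.51 ± 0.240 without hormone, with 1.37 ± 0.711 in uncultured discs, 1.45 ± 0.557 in 20E at 4 h, 1.22 ± 0.345 in 20E at 9 h and 1.26 ± 0.322 in insulin at 9 h. The order was insulin at 4 h, 20E at 9 h, insulin at 9 h, uncultured, 20E at 4 h and no hormone, and each neighbouring pair overlapped. Idgf3 passed the test in 0 of 12 comparisons (limma, smallest adjusted p = 0.325), and 0 had an unadjusted p under 0.05.

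Idgf1 lay below 1 FPKM in every library and was not tested. It ranged from 0.124 to 0.975 FPKM, or about 5.0 to 38.9 fragments. The highest libraries were no hormone replicate 1, at 0.975 FPKM, and 20E at 4 h replicate 2, at 0.971 FPKM, and each came from a group whose other libraries were at 0.453 FPKM or lower. With no filter on low values it was called in 0 of 12 comparisons (limma, smallest adjusted p = 0.0911). Its group means lay between 0.233 ± 0.105 FPKM in uncultured discs and 0.611 ± 0.316 without hormone (SD, n = 3). Idgf5 was listed at 0 in 16 of 18 libraries. It was at 0.0230 FPKM in insulin at 4 h replicate 3 and at 0.0238 FPKM in uncultured replicate 2, each worth about 1 fragment. A count of 0 allows up to 3 fragments, or 0.0608 to 0.0821 FPKM of Idgf5 depending on the library, for counting error only.

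Culture without hormone for 4 h, set against uncultured discs, asked what culture alone does. Idgf4 rose by 0.31 ± 0.08 on the log2(FPKM + 1) scale (estimate ± SE, limma adjusted p = 0.00206), or 1.24 times in mean FPKM. Over 16 alternatives the value ran from 0.24 to 0.60, so its size depends on the processing. All hormone-free libraries lay above all uncultured libraries. Idgf6 had a change of 0.48 ± 0.34 (adjusted p = 0.221) and Idgf2 one of -0.11 ± 0.14 (adjusted p = 0.498), and their ranges overlapped. Thus 1 of the 4 tested Idgf genes was called. Of all tested genes 70.6% were called in this comparison, and the group ranges of 73.2% did not overlap. Without no hormone replicate 1, Idgf6 was called as well, at 0.86 (adjusted p = 0.0282).

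At 4 h, Idgf4 was lower in 20E than without hormone. The change was -0.46 ± 0.08 (adjusted p = 0.000332), a ratio of 0.725 in mean FPKM, and the ranges did not overlap. It was called in every alternative run. Idgf6 changed by -0.58 ± 0.34 (adjusted p = 0.219), with overlapping ranges, and Idgf2 by 0.12 ± 0.14 (adjusted p = 0.582). Idgf6 was lower in 20E in each same-numbered pair, at 26.7 against 34.6, 51.6 against 91.2 and 43.2 against 64.9 FPKM. Replicate 1 was lowest and replicate 2 highest for Idgf6 in each group at 4 h. Over all tested genes, however, same-numbered libraries of 20E and no hormone at 4 h hardly deviated together (correlations of 0.06, 0.07 and -0.03). Whether the Idgf6 spread is shared by these groups was not tested. With the replicate number as a block in the fit of all 6 groups, Idgf6 was still not called. A paired comparison of the 4 h groups alone was not tested. The call of 1 of the 4 tested Idgf genes stands beside 30.7% of all tested genes, with 15.7% higher and 15% lower. The ranges of 43% did not overlap. Idgf6 was called without no hormone replicate 1, at -0.96 (adjusted p = 0.0378).

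Insulin at 4 h, compared with no hormone, gave 0 calls among the 4 tested Idgf genes. Of all tested genes 57.9% were called, and the ranges of 64.4% did not overlap. Idgf4 differed by -0.03 ± 0.08 (adjusted p = 0.758), with a 95% interval from -0.19 to 0.13. Idgf2 was at 0.614 of the hormone-free mean, and its ranges did not overlap, but its change of -0.30 ± 0.14 missed the threshold (adjusted p = 0.0793). It was the only Idgf gene with an unadjusted p under 0.05 in this limma comparison (0.0491). Idgf2 was called with a pseudocount of 0.1 (adjusted p = 0.0468), with quantile normalization (adjusted p = 0.0266), with weights for each library (adjusted p = 0.0471) and without no hormone replicate 3 (adjusted p = 0.0487).

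The hormones were compared directly at each time. At 4 h, Idgf4 was lower in 20E than in insulin, with a change of -0.43 ± 0.08 (adjusted p = 0.000208), and Idgf2 was higher in 20E, with a change of 0.42 ± 0.14 (adjusted p = 0.0196). These were 2 of the 4 tested Idgf genes, beside 56.8% of all tested genes called and 63.1% with separate ranges. The Idgf2 call was lost without 20E at 4 h replicate 2, at 0.30 (adjusted p = 0.0975), or without insulin at 4 h replicate 2, at 0.36 (adjusted p = 0.0719). Idgf6 differed by -0.31 ± 0.34 (adjusted p = 0.467).

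At 9 h the Idgf genes were furthest apart. Idgf4 was at 0.447 of its insulin mean in 20E, a change of -1.16 ± 0.08 (adjusted p = 1.7e-08). Idgf6 was at 0.219 of its insulin mean, a change of -2.13 ± 0.34 (adjusted p = 0.000102). Idgf2 went the other way, at 2.57 times its insulin mean and a change of 0.67 ± 0.14 (adjusted p = 0.000987). The ranges of the groups did not overlap for any of these genes, and each was called in every alternative in which it was tested. The 3 called of the 4 tested Idgf genes stand beside 53% of all tested genes, with 26.4% lower and 26.6% higher in 20E. Of all tested genes 58% had separate ranges. CG5888, a gene that overlaps Idgf2 on the other strand, was also higher in 20E (0.64 ± 0.15, adjusted p = 0.00185), and its part in the Idgf2 difference was not tested. Of 6 markers of the disc's myoblasts, how was higher in 20E at 9 h (67.5 against 33.7 FPKM) and htl was lower (9.01 against 10.5 FPKM), and the median of the 6 changes was -0.07; their part in these differences was not tested.

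**Figure D2:**
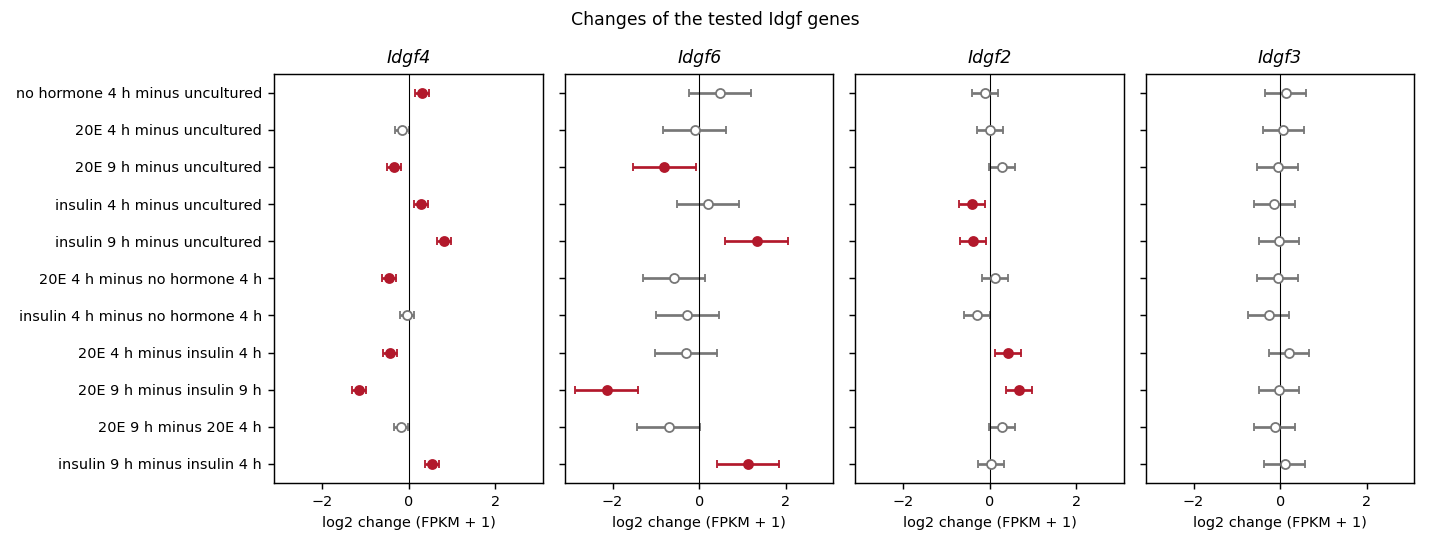
Change of Idgf4, Idgf6, Idgf2 and Idgf3 in 11 comparisons (x axis, log2 of FPKM + 1, first group minus second), with points for the limma estimate, bars for its 95% interval and filled red points for calls. Idgf4 and Idgf6 are below 0 and Idgf2 is above 0 for 20E against insulin at 9 h; against uncultured discs, the Idgf4 values for 20E turn from -0.15 to 0.22 (4 h) and from -0.34 to 0.09 (9 h) under quantile normalization.

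Within the insulin cultures, Idgf4 rose between 4 h and 9 h by 0.54 ± 0.08 (adjusted p = 6.93e-05), or 1.46 times in mean FPKM. Idgf6 rose by 1.13 ± 0.34 (adjusted p = 0.0145), or 2.13 times, and neither gene's ranges overlapped. The Idgf6 call was lost without insulin at 4 h replicate 1, at 0.83 (adjusted p = 0.0714), or without insulin at 9 h replicate 3, at 0.99 (adjusted p = 0.0562). Idgf2 had a change of 0.02 ± 0.14 (adjusted p = 0.905). The 2 calls among the 4 tested Idgf genes stand beside 44.6% of all tested genes, with 21.3% higher and 23.3% lower at 9 h. Of all tested genes 54.6% had separate ranges.

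From 4 h to 9 h in 20E, 0 of the 4 tested Idgf genes were called. Of all tested genes 22.9% were called and 37.6% had separate ranges. In limma, 1 Idgf gene had an unadjusted p under 0.05, which was Idgf4 (0.0276), with a change of -0.19 ± 0.08 (adjusted p = 0.0928). Its call appeared without 20E at 9 h replicate 3 (adjusted p = 0.0462) and with weights for each library (adjusted p = 0.0176). Idgf6 had a change of -0.70 ± 0.34 (adjusted p = 0.152), with no overlap of the ranges. With weights for each library, 3 of the 4 tested Idgf genes were called, which were Idgf4, Idgf6 and Idgf2.

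The change with time differed between the hormones for Idgf4 and Idgf6. The difference (9 h minus 4 h, 20E less insulin) was -0.73 ± 0.11 for Idgf4 (limma interaction, adjusted p = 0.000343) and -1.83 ± 0.48 for Idgf6 (adjusted p = 0.0119). For Idgf2 it was 0.25 ± 0.20 (adjusted p = 0.374). The 2 calls among the 4 tested Idgf genes stand beside 26.5% of all tested genes. Of all tested genes 13% were called in the negative and 13.5% in the positive direction. Both Idgf calls were kept in every alternative run, but the run without the 5 libraries of highest gut markers left only 1 library of insulin at 4 h. Idgf2 was called with weights for each library (0.43, adjusted p = 0.0264). At 9 h the ratio of Idgf4 to Idgf6 was 10.5 to 11.1 in 20E and 4.83 to 5.999 in insulin, so its ranges did not overlap. Replicates of single groups at 4 h spread about as widely. They ran from 4.84 to 11.3 without hormone, from 5.35 to 11.6 in 20E and from 5.95 to 12.5 in insulin.

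Against uncultured discs, insulin at 9 h gave the most calls. Idgf4 was higher by 0.82 ± 0.08 (adjusted p = 2.39e-07), or 1.77 times, Idgf6 was higher by 1.33 ± 0.34 (adjusted p = 0.00292), or 2.51 times, and Idgf2 was lower, at -0.39 ± 0.14 (adjusted p = 0.0238). These were 3 of the 4 tested Idgf genes, beside 67.6% of all tested genes called and 71.4% with separate ranges. Over the alternatives the Idgf4 value ran from 0.75 to 1.15. The Idgf2 call was lost without uncultured replicate 1 (adjusted p = 0.101), without insulin at 9 h replicate 1 (adjusted p = 0.0551) or replicate 3 (adjusted p = 0.0677), and under quantile normalization (adjusted p = 0.0704). The comparisons with uncultured discs share the same 3 libraries, as do those with the hormone-free cultures, so they are not independent of each other.

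In insulin at 4 h, Idgf4 was higher than in uncultured discs (0.28 ± 0.08, adjusted p = 0.00668), at 0.21 to 0.52 over the alternatives. Idgf2 was lower (-0.41 ± 0.14, adjusted p = 0.0229). These were 2 of the 4 tested Idgf genes, beside 52.4% of all tested genes called and 60.7% with separate ranges. The Idgf2 call was lost without uncultured replicate 1 (adjusted p = 0.0968) or insulin at 4 h replicate 2 (adjusted p = 0.0798). Without the 5 libraries of highest gut markers together, Idgf4 stood at 0.27, with only 1 library of insulin at 4 h left. In 20E at 9 h, Idgf4 was lower than in uncultured discs, at -0.34 ± 0.08 (adjusted p = 0.000999), a value that turned to 0.09 (adjusted p = 0.312) under quantile normalization. Idgf6 was lower, at -0.81 ± 0.34 (adjusted p = 0.0449). That call was lost without uncultured replicate 1 (adjusted p = 0.0579) or replicate 3 (adjusted p = 0.173) and without any one of the 20E libraries (adjusted p = 0.0659 to 0.098), with no filter (adjusted p = 0.0702) and under quantile normalization (adjusted p = 0.056). Idgf2 was at 0.28 ± 0.14 (adjusted p = 0.0821), and it was called without uncultured replicate 1 (adjusted p = 0.0423), without 20E at 9 h replicate 2 (adjusted p = 0.0304), under quantile normalization (adjusted p = 0.0135) and with weights for each library (adjusted p = 0.00638). Here 2 of the 4 tested Idgf genes were called, beside 71.3% of all tested genes called and 73.7% with separate ranges. In 20E at 4 h, 0 of the 4 tested Idgf genes were called, beside 67.3% of all tested genes called and 70.6% with separate ranges. No Idgf gene had an unadjusted p under 0.05 in limma. Idgf4 was then at -0.15 ± 0.08 (adjusted p = 0.0886), at 0.22 (adjusted p = 0.0217) under quantile normalization and at -0.19 (adjusted p = 0.0196) with weights for each library.

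Several true chitinases of the same enzyme family also differed between the hormones. The list of 10 chitinases held 7 that were tested. For 20E against insulin at 9 h, 3 of these were higher and 3 were lower, beside 26.6% and 26.4% of all tested genes. Their median was -0.04 beside -0.01 over all tested genes. Cht6 averaged 11.97 FPKM in 20E and 74.4 FPKM in insulin, a change of -2.55 ± 0.13 (adjusted p = 1.73e-09). Cht7 and Cht2 were lower in 20E as well, at -0.85 ± 0.10 (adjusted p = 4.61e-06) and -0.50 ± 0.10 (adjusted p = 0.000647). Cht5, known in other insects for breaking down old cuticle at the moult, averaged 132.0 FPKM in 20E and 31.7 FPKM in insulin, a change of 2.04 ± 0.24 (adjusted p = 6.09e-06). Cht3, which current annotation calls Cht10, was higher by 1.53 ± 0.12 (adjusted p = 8.12e-08), and Cht11 by 0.40 ± 0.10 (adjusted p = 0.00277). Members of the family thus moved in both directions, as did the tested genes at large. Cht9 passed the filter through the 3 uncultured libraries alone and averaged 0.0835 and 0.112 FPKM in these groups, too low to tell a difference.

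At 4 h, 2 of the 7 chitinases tested were higher and 2 were lower in 20E than without hormone, beside 15.7% of all tested genes higher and 15% lower, and 1 was lower under quantile normalization or without uncultured replicate 2 and no hormone replicate 1 together. Cht3 rose from 50.3 to 179.7 FPKM (1.82 ± 0.12, adjusted p = 2.73e-08) and Cht6 fell from 34.5 to 12.9 FPKM (-1.35 ± 0.13, adjusted p = 3.3e-06). Between 4 h and 9 h in insulin, 4 chitinases rose and 0 fell, with a median of 0.41 beside 0 over all tested genes, of which 21.3% were called higher and 23.3% lower. These were Cht2, Cht5, Cht6 and Cht7, and Cht6 rose most, by 1.26 ± 0.13 (adjusted p = 7.41e-06). Without the 5 libraries of highest gut markers, named with the markers, 2 rose and 1 fell. In the interaction of hormone and time, 3 of 7 were called (2 without those libraries), all negative, beside 26.5% of all tested genes, with Cht6 at -1.37 ± 0.19 (adjusted p = 0.000207). Cht5 and Idgf4 were both higher without hormone than in uncultured discs, but Cht5 was lower in insulin than without hormone at 4 h, at -1.84 ± 0.24 (adjusted p = 1.13e-05).

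**Figure D3:**
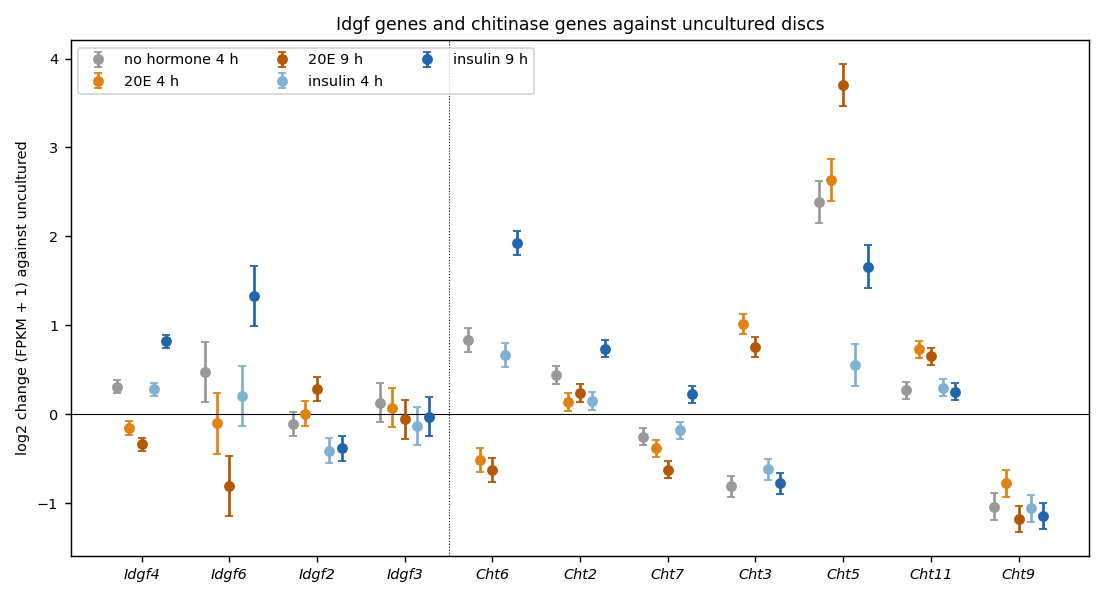
Change of the 4 tested Idgf genes and 7 tested chitinases in each culture against uncultured discs (y axis, log2 of FPKM + 1), with points for the limma estimate and bars for its SE; the dotted line parts the families. Insulin at 9 h is the highest culture for Idgf4, Idgf6 and Cht6, and 20E at 9 h is the highest for Idgf2 and Cht5; the Idgf4 points for 20E turn positive under quantile normalization, at 0.22 (4 h) and 0.09 (9 h).

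Genes that make and organise chitin were mostly lower in 20E than in insulin at 9 h. Of 14 listed genes 13 were tested, and 2 were higher and 9 lower, with a median of -0.74 beside -0.01 over all tested genes, of which 26.6% were higher and 26.4% lower. The chitin deacetylase gene Cda5 averaged 1.08 FPKM in 20E and 28.4 FPKM in insulin (-3.82 ± 0.26, adjusted p = 2.86e-08), and Cda4 averaged 114.2 and 542.0 FPKM (-2.25 ± 0.14, adjusted p = 1.37e-08). The chitin-binding protein gene obst-A averaged 71.2 and 362.7 FPKM (-2.33 ± 0.09, adjusted p = 7.68e-11). The chitin synthase gene kkv went the other way (0.33 ± 0.06, adjusted p = 0.000567), with Gfat2, whose product supplies the amino sugar of chitin (0.37 ± 0.07, adjusted p = 0.000363). Between the insulin times, 8 of the 13 rose and 0 fell (median 0.36), beside 21.3% of all tested genes higher and 23.3% lower, and without the 5 libraries of highest gut markers 3 rose and 0 fell. At 4 h, 20E against no hormone gave 1 higher and 7 lower, beside 15.7% and 15% of all tested genes, among them the deacetylase genes serp, at -1.04 ± 0.08 (adjusted p = 2.43e-07), and verm, at -1.14 ± 0.09 (adjusted p = 3.06e-07).

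The adenosine deaminase-related growth factors, another family of secreted proteins with growth factor activity in insect cells, gave 1 tested gene of 6. Adgf-A rose from 1.25 to 3.64 FPKM between 4 h and 9 h of insulin (1.06 ± 0.12, adjusted p = 1.57e-05). It reached 1 FPKM in 7 libraries, 5 of them with insulin, and so entered the tests through the groups in which it was high. It was lower in 20E at 9 h, at 0.969 FPKM, than in insulin (-1.24 ± 0.12, adjusted p = 1.13e-06).

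For each tested Idgf gene, the 3 genes with the most similar pattern were found by Pearson correlation of log2(FPKM + 1) over the 18 libraries, among 6753 or 6754 protein-coding genes that averaged at least 5 FPKM. The libraries share hormone groups and depth, so these values are descriptions. Nearest to Idgf4 were scramb2, a phospholipid scramblase gene (r = 0.977), CG10585 (0.970) and Cht6 (0.964). The mean of scramb2 went from 165.4 FPKM in 20E at 9 h to 339.9 FPKM in insulin at 9 h, and that of CG10585 from 15.1 to 28.6 FPKM. Nearest to Idgf6 were CG42514 (0.933), MFS10, a gene of the major facilitator family of transporters (0.904), and FBgn0039208, which the table leaves without a name (0.901). Between 20E and insulin at 9 h the mean of CG42514 went from 50.1 to 88.3 FPKM, that of MFS10 from 9.67 to 22.4 FPKM and that of FBgn0039208 from 11.2 to 47.9 FPKM. Nearest to Idgf2 were fz2, which encodes a Wnt receptor (0.893), S, which encodes Star, a protein needed to process an EGF receptor ligand (0.880), and inc (0.872). The fz2 mean was 191.3 FPKM in 20E at 9 h and 131.7 FPKM in insulin at 9 h. No gene came close to Idgf3, for which ana2 (0.684), xit (0.628) and Galt (0.583) ranked first. Its low level leaves counting noise in these values. Idgf2 reached 0.893 with fewer estimated fragments (median 51.3 against 153.5 for Idgf3). Idgf2 was called between groups and Idgf3 was not, so this contrast does not bear on counting noise. The cause of the weaker Idgf3 values was not tested.

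**Figure D4:**
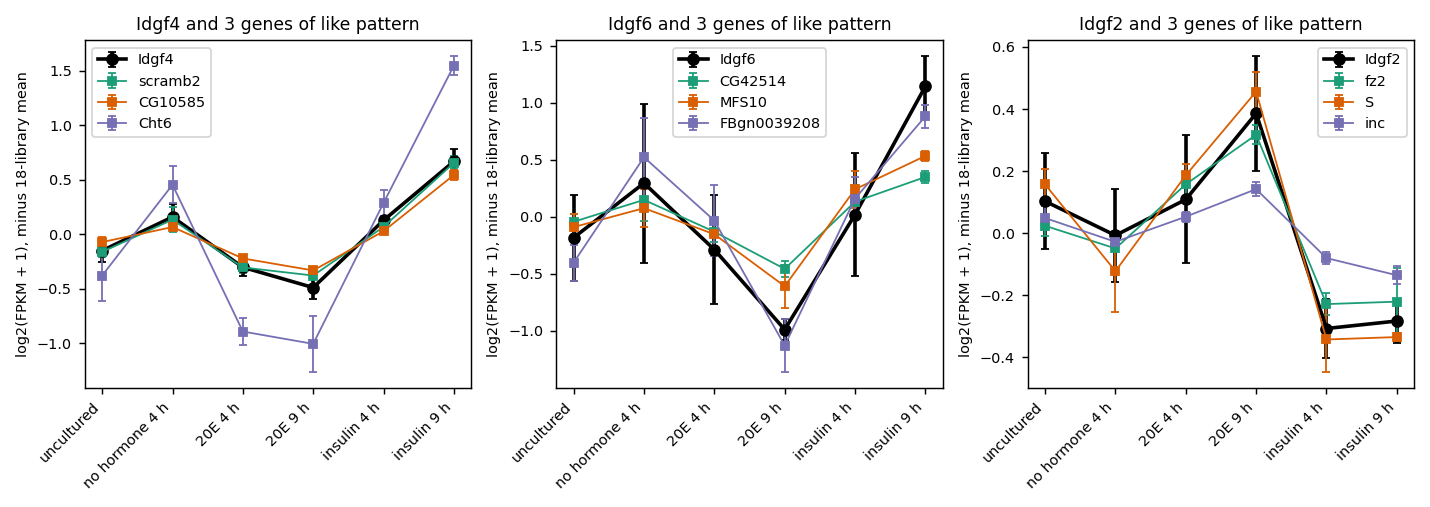
Mean log2(FPKM + 1) by group, centred on each gene's mean, for Idgf4, Idgf6 and Idgf2 (black lines) with the 3 genes most correlated with each over 18 libraries; bars are the SD over 3 libraries. The Idgf4 and Idgf6 panels peak in insulin at 9 h and the Idgf2 panel peaks in 20E at 9 h.

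Overlapping genes limit how finely reads can be assigned. Idgf6 lies within Pgant9, which is on the opposite strand and shares 0 exonic bases with it in the current annotation, and Idgf1 and part of Idgf2 lie in the same way within CG5888. The libraries were made with a strand-specific kit, but whether counting used the strand is not stated in the sources used here. Pgant9, which encodes an enzyme that adds sugars to proteins, averaged 21.7 FPKM in 20E at 9 h and 12.5 FPKM in insulin at 9 h (0.75 ± 0.11, adjusted p = 3.95e-05), the opposite direction to Idgf6. CG5888 averaged 4.94 FPKM in 20E at 9 h and 2.81 FPKM in insulin at 9 h (0.64 ± 0.15, adjusted p = 0.00185), the same direction as Idgf2. Idgf genes are related copies, and how reads that fit more than 1 of them were shared out is not given in the sources used here, so the low values of Idgf1, Idgf2, Idgf3 and Idgf5 are uncertain.

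The tissue carried its label. All 11 wing disc markers, among them vg and nub, were at 13.3 FPKM or above in every library, and all 6 markers of the disc's myoblasts and 5 of its trachea were detected. The wing disc markers summed to 844.0 to 928.8 FPKM in 20E at 9 h and 683.1 to 736.0 FPKM in insulin at 9 h. Of these 11 markers, 9 were called higher and 1 lower in 20E at 9 h, with a median change of 0.27. Of all tested genes 26.6% were higher and 26.4% lower. In bulk discs, fewer cells of a type and less RNA per cell cannot be told apart. The 6 myoblast markers summed to 149.0 to 157.2 FPKM in 20E at 9 h and 115.4 to 123.0 in insulin at 9 h, with 95.2 to 141.8 in the other groups. The 9 h gap in this sum was that of how: the other 5 summed to 83.9 to 87.1 FPKM in 20E and 82.2 to 88.9 in insulin at 9 h, and to 60.2 to 68.5 in insulin at 4 h. The 5 tracheal markers summed to 229.9 to 249.3 FPKM in uncultured discs and 263.1 to 346.6 FPKM in all cultures, with 292.5 to 332.9 in 20E at 9 h and 331.7 to 346.6 in insulin at 9 h. Most of this sum was pio (126.3 to 210.0 FPKM over all libraries) and uif (72.7 to 112.1 FPKM). Marker by marker, 2 of the 5 were called higher and 1 lower in 20E than in insulin at 9 h, with a median change of 0.14. Of all tested genes 26.6% were higher and 26.4% lower. The part of wing disc cells, myoblasts or trachea in the Idgf differences was not tested. The 7 fat body markers summed to 0.909 to 1.10 FPKM in uncultured discs and at most 0.623 FPKM in the others. Of the 8 haemocyte markers, crq was at 18.3 to 25.4 FPKM in every library and the other 7 summed to 0.376 to 5.77 FPKM. At 9 h these 7 summed to 0.577 to 1.09 FPKM in 20E and 0.936 to 2.00 FPKM in insulin, and PPO1, a crystal cell gene, averaged 0.0391 and 0.756 FPKM, while crq averaged 22.5 and 22.7 FPKM. The 6 salivary gland markers summed to at most 0.641 FPKM. Gut digestive enzyme markers reached 11407 FPKM in uncultured replicate 2 and 794.1 FPKM in no hormone replicate 1, and leaving out both libraries together kept the Idgf4 calls. They also summed to 231.0 and 140.4 FPKM in insulin at 4 h replicates 2 and 3 and to 42.1 FPKM in insulin at 9 h replicate 2, against at most 17.8 FPKM elsewhere. Without these 5 libraries together, a choice made after seeing the data, the 3 calls for 20E against insulin at 9 h were kept. Of insulin at 4 h this leaves replicate 1 alone, the lowest of that group for Idgf6 (31.9 against 67.6 and 52.9 FPKM). Comparisons with insulin at 4 h then rest on that library. Idgf6 stood at 1.84 from 4 h to 9 h of insulin and at -1.24 for insulin against no hormone at 4 h. The cultures without hormone then keep replicates 2 and 3 only. Replicate 1 was lowest for Idgf6 in every group at 4 h, so neither size tests the Idgf6 change.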

How the data were processed

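Per the labels' protocols, poly(A) RNA of wing discs went into libraries that keep the strand. Per the submitters' processing notes, the authors used cutadapt, TopHat2 and Cufflinks with build BDGP5; versions, annotation and filters are not given in the sources used here. The deposited table holds FPKM per gene and library, not counts. FPKM are scaled to each library's total, so a gene's value depends on the rest of the library.

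Values were taken as log2(FPKM + 1), and a fold on this scale understates changes of low genes. A gene was tested where 3 or more of the 18 libraries reached 1 FPKM, using limma 3.58.1 in R 4.3.3 (trended variance, all 6 groups sharing one spread, two-sided), with Benjamini-Hochberg adjustment within each of 12 comparisons and calls at an adjusted p under 0.05. For 3 libraries against 3, an exact permutation test cannot go below 0.1. The design text calls replicates biological, with no word on separate collections; otherwise p-values cover only the spread between libraries. Fragments were estimated from steps in low FPKM of genes with 1 transcript, of which 85.4% to 90.8% lay within 0.1 of a whole number. Members of the family, the comparison lists and the tests were chosen with earlier results of these data known. Named genes were the 6 Idgf genes, their 3 most correlated genes and listed genes. The alternatives were another pseudocount, other filters, other scalings, a fit to the compared groups, a replicate block, weights for each library and leaving out libraries, one set of 5 chosen after seeing the data. The scripts were tested on simulated data.

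Over 15 pairs of groups, 0 had same-numbered libraries that deviated together in all 3 pairs beyond a correlation of 0.1, so replicate numbers were not taken as pairs. The marker tango was not matched. Over all gene values, 0 pairs of libraries were identical, and replicates correlated at 0.945 to 0.985.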

Additional observations from a re-analysis of the deposited data

Results flagged for a closer look

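The change of Idgf4 from 4 h to 9 h differed between the hormones. In 20E minus insulin it was -0.73 ± 0.11 on the log2(FPKM + 1) scale (estimate ± SE, limma interaction, adjusted p = 0.000343). Idgf4 went from 291.8 to 256.6 FPKM in 20E and from 393.5 to 573.6 FPKM in insulin (means, n = 3).

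The same difference was -1.83 ± 0.48 for Idgf6 (adjusted p = 0.0119). Idgf6 went from 40.5 to 23.7 FPKM in 20E and from 50.8 to 108.3 FPKM in insulin. In insulin, leaving out 4 h replicate 1 or 9 h replicate 3 ended the call of the rise itself, but the difference between the hormones stayed called.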

How the results depend on the processing

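Over the alternatives run for Idgf2, Idgf4 and Idgf6, 504 values kept their direction and side of the threshold, 19 passed it anew, 21 no longer passed it and 23 changed sign. Idgf3 changed sign in 27 of 181 values and was called in 0 (lowest adjusted p = 0.0826). Of 6 Idgf genes, 1 was called for insulin against no hormone at 4 h with a pseudocount of 0.1, with quantile normalization or with weights for each library. For 20E at 4 h against uncultured discs, 1 was called with quantile normalization or weights. It was Idgf4 each time, but higher in 20E with quantile normalization and lower with weights. For 20E at 9 h against uncultured discs, 1 was called with no filter (Idgf4, lower) and 1 with quantile normalization (Idgf2, higher), where the main fit called 2 lower. A mean of at least 5 FPKM left out Idgf2 and Idgf3, so 1 was called for 20E against insulin at 4 h and 1 for insulin at 4 h against uncultured discs. Weights gave 3 for 9 h against 4 h of 20E, and leaving out uncultured replicate 2 and no hormone replicate 1 together gave 2 for 20E against no hormone.

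Sign changes of Idgf4 against uncultured discs came with quantile normalization, at 0.22 for 20E at 4 h and 0.092 for 20E at 9 h. For Idgf2 and 20E at 4 h against uncultured discs, the value was -0.00062 with median-ratio scaling, -0.014 with weights and -0.039 without those 2 libraries. Idgf2 stood at 0.012 for no hormone against uncultured discs with quantile normalization and at -0.034 for 9 h against 4 h of insulin with weights. Without the 5 libraries of highest gut markers together, an alternative chosen after seeing the data, the number called was 2 for 20E against no hormone at 4 h. Comparisons with insulin at 4 h then rest on replicate 1 alone, so Idgf calls there were not counted. Idgf6 then stood at 0.28 for 20E against insulin at 4 h and -0.52 for insulin at 4 h against uncultured discs, and Idgf2 at -0.065 for 9 h against 4 h of insulin and -0.039 for 20E at 4 h against uncultured discs. The cause was not tested.

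Leaving out 1 library at a time, the number of Idgf genes called ranged from 1 to 2 for 20E against insulin and against no hormone at 4 h, for insulin at 4 h, 20E at 9 h and no hormone against uncultured discs and for 9 h against 4 h of insulin. It was 0 to 1 for 9 h against 4 h of 20E and for insulin against no hormone, 2 to 3 for insulin at 9 h against uncultured discs, 3 for 20E against insulin at 9 h, 2 for the interaction and 0 for 20E at 4 h against uncultured discs.

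Leaving out 1 library at a time also changed signs among values that were not called. For 20E at 4 h, Idgf2 ranged from -0.000010 to 0.20 against no hormone and from -0.11 to 0.095 against uncultured discs, and Idgf6 from -0.30 to 0.16 against uncultured discs. For insulin at 4 h against no hormone, Idgf4 ranged from -0.078 to 0.036 and Idgf6 from -0.65 to 0.033. Idgf6 ranged from -0.033 to 0.50 for insulin at 4 h against uncultured discs, and Idgf2 from -0.032 to 0.055 for 9 h against 4 h of insulin.

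With the replicate number as a block no Idgf call changed; Idgf4 for 20E against insulin at 9 h had an adjusted p of 1.36e-07, and the count of all genes called for 20E against no hormone at 4 h went from 2621 to 2734. Idgf6 was lowest in replicate 1 and highest in replicate 2 of all 3 groups at 4 h. For 9 h against 4 h of 20E, 1951 genes of all those tested were called, 1127 when only these groups were fitted and 3606 with weights, and weights took the interaction from 2261 to 3719 genes. Without the 5 libraries of highest gut markers together, the interaction gave 1189 and 9 h against 4 h of insulin gave 1653 in place of 3801. Counting error is largest for Idgf5, at 0 to 1.0 estimated fragments a library, and Idgf1, at 5.0 to 38.9. Uncultured replicates of Idgf3 held an estimated 184, 65 and 193 fragments.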
